A study of Rattus norvegicus with 3 samples.

Results

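The 10 core circadian clock genes Clock, Arntl, Per1, Per2, Per3, Cry1, Cry2, Nr1d1, Nr1d2 and Dbp were taken from the tables of rat motor cortex by exact gene symbol. All 10 were found, each in 1 row, among 30957 genes listed. The tissue came from 3 male Sprague-Dawley rats, numbered 12, 24-4 and 33, with 1 RNA library each. Every animal had cerebral ischemia and reperfusion, a model in which the blood supply of the brain is cut off and then restored, with electroacupuncture at the GB20 point, and carries a time label of 8 weeks whose starting point is not stated. All 3 rats form 1 group, so the data give the level of each clock gene and its spread between treated animals, and no effect of ischemia or of the stimulation can be read from them. The hour of day at which tissue was taken is not in the labels used here, and each rat was sampled once.

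The circadian clock is a feedback loop of transcription that runs in almost every cell, neurons and glia of the cerebral cortex included. CLOCK and ARNTL (also called BMAL1) form a pair that binds E-boxes and switches on the Per, Cry and Nr1d genes, the positive limb of the loop. PER and CRY proteins return to the nucleus and restrain that pair, while NR1D1 and NR1D2 (REV-ERB alpha and beta) repress Arntl through ROR elements, the negative limb. DBP is an output factor that binds D-boxes. In tissues of rodents Arntl RNA usually peaks at about the opposite time of day from Nr1d1, Dbp and Per RNA, whereas Clock RNA cycles little.

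Promoter windows of these genes were searched for letter matches to known DNA elements. Windows from 250 bases before to 50 bases after an annotated start were taken from RefSeq, build GRCr8, where 9 of the 10 genes had at least 1 of 11 windows (Arntl under the symbol Bmal1). Both strands were searched for the E-box CACGTG, the E-box variant CACGTT, the D-box TTATGTAA or TTACGTAA, the ROR element core TAGGTCA and the cAMP response element TGACGTCA. Among the 33469 windows of the whole table, 6.42% held the E-box, 4.83% its variant, 1.01% the D-box, 2.63% the ROR core and 1.83% the cAMP element. Of the 11 clock gene windows, 1 held the E-box, 3 the variant, 1 the D-box, 1 the ROR core and 0 the cAMP element. Only 5 of the 11 held any of them, and the windows of Clock, Per1, Per3, Nr1d2 and Dbp held none. The 3 windows below, 5′ to 3′ on the strand of the gene, show a letter match for each kind of element that was found, in capitals. A match is a description of these letters, not a measured binding site.
Arntl, chr1:176766078-176766377, plus strand, with the ROR core at position -16 from the start: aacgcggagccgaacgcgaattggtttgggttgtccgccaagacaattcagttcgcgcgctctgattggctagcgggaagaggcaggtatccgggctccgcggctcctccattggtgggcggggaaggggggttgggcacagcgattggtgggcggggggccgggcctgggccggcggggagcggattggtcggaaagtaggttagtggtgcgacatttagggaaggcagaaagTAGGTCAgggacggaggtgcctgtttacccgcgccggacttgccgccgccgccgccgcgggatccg
Per2, chr9:99496944-99497243, minus strand, with the D-box at -192 and the E-box variant at -62: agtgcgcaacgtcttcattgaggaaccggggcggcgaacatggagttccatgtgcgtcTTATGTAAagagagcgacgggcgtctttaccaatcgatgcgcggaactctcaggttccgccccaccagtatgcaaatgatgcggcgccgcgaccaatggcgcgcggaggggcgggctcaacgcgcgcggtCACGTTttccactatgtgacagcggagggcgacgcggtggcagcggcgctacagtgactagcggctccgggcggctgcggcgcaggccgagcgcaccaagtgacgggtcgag
Nr1d1, chr10:84229405-84229704, minus strand, at its second annotated start, with the E-box at -191: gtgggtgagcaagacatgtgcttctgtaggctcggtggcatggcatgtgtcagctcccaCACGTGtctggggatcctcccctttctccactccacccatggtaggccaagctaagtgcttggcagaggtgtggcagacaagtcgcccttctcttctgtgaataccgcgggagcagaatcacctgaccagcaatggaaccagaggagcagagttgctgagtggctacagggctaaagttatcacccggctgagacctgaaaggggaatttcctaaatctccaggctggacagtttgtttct

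All 10 genes were expressed in every rat, and they differed more from each other than between animals. The deposited unit is FPKM, a fragment count scaled to gene length and to library depth, which allows levels of different genes to be compared. Mean FPKM ran from 3.00 ± 0.955 for Clock to 44.9 ± 4.84 for Nr1d1 (SD, n = 3 rats, here and below). The median of the 10 means was 15.3, beside 10.5 over the 13754 genes that were tested, all of mean FPKM 1 or above. From the highest mean to the lowest the order was Nr1d1, Cry2, Dbp, Per1, Nr1d2, Per2, Per3, Arntl, Cry1 and Clock. On the log2(FPKM + 1) scale 5 of the 9 steps in that order had 1 sign in all rats and a mean larger than its SD. The other steps, Cry2 to Dbp, Per1 to Nr1d2, Per2 to Per3 and Per3 to Arntl, lay within the spread between rats.

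**Figure D1:**
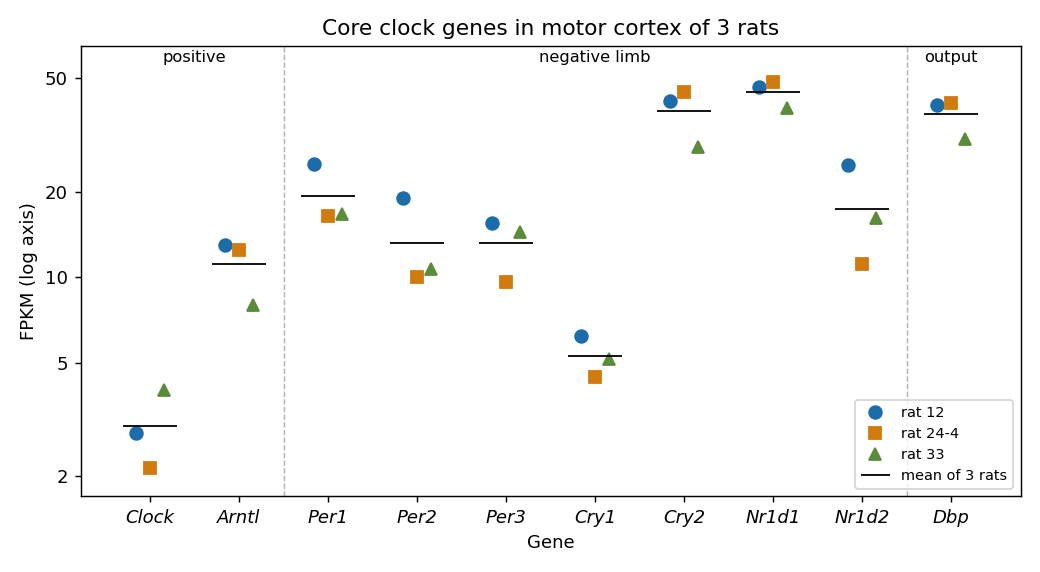
FPKM of the 10 clock genes on a log axis, with 1 point for each of rats 12, 24-4 and 33 and a bar at the mean of the 3. Clock lies lowest, with values from 2.14 to 4.02, and Nr1d1 highest, from 39.5 to 48.7.

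In the positive limb, Clock and Arntl went opposite ways in rat 33. Clock, which encodes the histone-acetylating partner of the activator pair (Rnor_6.0, chromosome 14, 34446616 to 34502218), had FPKM values of 2.83, 2.14 and 4.02 (rats 12, 24-4 and 33, the order kept below). It was highest in rat 33 and lowest in rat 24-4. Arntl, which encodes the other partner (chromosome 1, 178039063 to 178137465), had 13.0, 12.5 and 8.01. Rat 33 was low for Arntl, and the other two were close together. The FPKM ratio of Clock to Arntl was therefore 0.218, 0.171 and 0.503, a 2.94-fold range. A ratio of 2 genes within a rat does not change with the scaling of its library. Transcript lengths are not in the files, but at the estimated depths Clock rested on 43.4, 36.8 and 52.4 fragments per kilobase of transcript in rats 12, 24-4 and 33, and the exact 95% Poisson bounds were 31.5 and 58.4 in the first, 25.9 and 50.8 in the second, and 39.1 and 68.6 in the third. These bounds hold for 1 kb of transcript and cover counting error only. As fragments at unlike depths, they cannot be set against each other between rats.

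The 3 Per genes, which encode the period proteins of the repressor complex, were highest in rat 12. Per1 (chromosome 10, 55687050 to 55695994) had an FPKM of 24.9, 16.4 and 16.7 in rats 12, 24-4 and 33. Per2 (chromosome 9, 98555169 to 98597359) had 18.9, 10.01 and 10.7. For both, rat 12 stood above the other two, which were nearly equal. Per3 (chromosome 5, 168086998 to 168123395) had 15.5, 9.60 and 14.4, so that only rat 24-4 was low. Within each rat Per1 exceeded Per2, with ratios of 1.32, 1.64 and 1.56 in rats 12, 24-4 and 33.

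The 2 cryptochrome genes, whose proteins bind and inhibit the activator pair, did not share a pattern. Cry1 (chromosome 7, 24534615 to 24634097) had an FPKM of 6.22, 4.46 and 5.15 in rats 12, 24-4 and 33, in the order of the Per genes. Cry2 (chromosome 3, 81314149 to 81344110) had 41.5, 44.8 and 28.8, with rat 33 low, as for Arntl. Cry2 was the more abundant in every rat, by 6.68, 10.03 and 5.59 times. On the log2(FPKM + 1) scale Cry2 minus Cry1 was 2.63 ± 0.40.

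The 2 REV-ERB genes, which encode haem-binding repressors of Arntl, also differed from each other. Nr1d1 (chromosome 10, 86683875 to 86690815) had an FPKM of 46.6, 48.7 and 39.5 in rats 12, 24-4 and 33, the smallest relative range of the 10 genes at 1.23-fold. Nr1d2 (chromosome 15, 8730871 to 8757165) had 24.9, 11.2 and 16.2, the largest range at 2.23-fold. Rat 24-4 was thus the highest for Nr1d1 and the lowest for Nr1d2, and the ratio of Nr1d1 to Nr1d2 was 1.87, 4.36 and 2.44. Nr1d1 overlaps the thyroid hormone receptor gene Thra on the opposite strand by 1059 bp at its 3′ end. Thra had 101, 203 and 129.9 in rats 12, 24-4 and 33, highest in rat 24-4. Whether the authors counted by strand is not given in the sources used here, so fragments from the shared stretch cannot be told apart and the level of Nr1d1 is uncertain to that extent.

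Dbp (chromosome 1, 101687855 to 101692846), the output factor, had an FPKM of 40.5, 41.0 and 30.7 in rats 12, 24-4 and 33. Like Arntl, Cry2 and Nr1d1 it was low in rat 33 and nearly equal in the other two.

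No excess spread between rats was detected for any of the 10 genes. Each residual variance was compared with that of genes of like level in a limma fit over all tested genes, where 14 genes, or 0.102%, passed a Benjamini-Hochberg adjusted p of 0.05. Of the clock genes 0 passed, and 0 had an unadjusted p under 0.05, as 820 tested genes (5.96%) had. Their limma adjusted p-values ran from 0.978 for Nr1d2 to 0.994 for Nr1d1. The SD between rats of log2(FPKM + 1) had a median of 0.34 over the clock genes and 0.32 over all tested genes. It was smallest for Nr1d1 (0.16), Cry1 (0.20) and Dbp (0.23) and largest for Nr1d2 (0.54) and Per2 (0.47). Seeded differences of 4-fold in 1 rat were recovered at 0% by this test and those of 16-fold at 92%, so differences as small as these were not detectable with 3 rats.

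**Figure D2:**
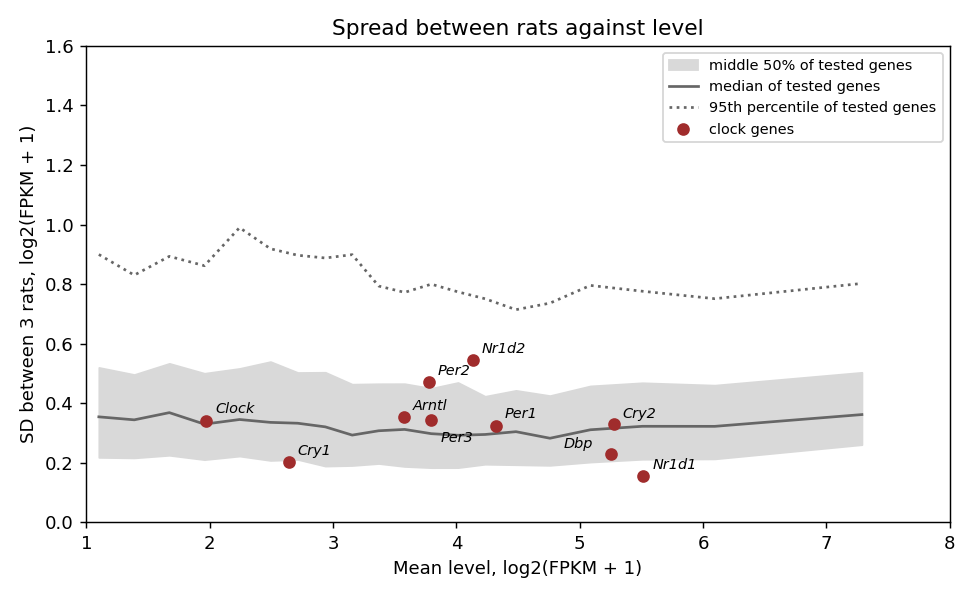
SD between the 3 rats against mean level, both on the log2(FPKM + 1) scale, for the 10 clock genes (points) and for the tested genes in 20 bins of level (line at the median, band over the middle 50%, dotted line at the 95th percentile). All 10 points lie below the dotted line, with Nr1d2 at 0.54 the highest and Nr1d1 at 0.16 the lowest.

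The median of the negative limb stood above that of the positive limb in every rat, though in rat 24-4 Arntl by itself lay above the negative median. The median log2(FPKM + 1) of Clock and Arntl was 2.87, 2.70 and 2.75 in rats 12, 24-4 and 33, with an SD of 0.09. That of the 7 Per, Cry and Nr1d genes was 4.69, 3.61 and 4.10, with an SD of 0.54, highest in rat 12. In all 3 rats that median was the value of Nr1d2, the most variable of the 7. The mean of the 7 genes was 4.51, 4.03 and 4.08, with a smaller SD of 0.26. Positive minus negative limb was -1.82, -0.90 and -1.35, with a mean of -1.36 ± 0.46, and was below 0 in 3 of 3 rats. The even level of the positive limb is a median of 2 genes, and it hides that Clock was highest and Arntl lowest in rat 33. Clock stood at 1.94, 1.65 and 2.33 and Arntl at 3.81, 3.75 and 3.17 in rats 12, 24-4 and 33. In rat 24-4 Arntl by itself thus lay above the negative median of 3.61, though below the mean of the 7 genes, 4.03. Npas2, a relative of Clock described below, lay above both at 4.72 in that rat. No p-value is given for these scores, because the genes were chosen with results of these data known.

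The orders of the rats did not follow the limbs. Arntl had the order 12, 24-4, 33, from high to low. Cry2, Nr1d1 and Dbp had 24-4, 12, 33, while Per1, Per2, Per3, Cry1 and Nr1d2 had 12, 33, 24-4, and Clock had 33, 12, 24-4. Rat 12 was the highest for 6 of 10 clock genes and for 23.8% of tested genes, and the lowest for 0 of 10 and for 37.9%. Rat 24-4 was the highest for 3 clock genes and the lowest for 6, against 34.2% and 33.3% of tested genes. Rat 33 was the highest for 1 and the lowest for 4, against 42.0% and 28.9%. With the mitochondrial genome left out, rat 12 became the highest for 9 of 10, and for 35.5% of tested genes. Cry2, Nr1d1 and Dbp then read 12, 24-4, 33. With scaling by median ratios Dbp did so too, while Per1 and Per2 were lowest in rat 33 instead of rat 24-4. Under all 3 scalings Arntl, Cry2, Nr1d1 and Dbp were lowest in rat 33, and Clock was highest there. Per1, Per2, Per3, Cry1 and Nr1d2 were highest in rat 12 under all 3. No clock gene was lowest in rat 12 under any, as 26.9% to 37.9% of tested genes were.

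Genes that usually peak at opposite times of day did not take opposite orders here. The FPKM ratio of Arntl to Dbp was 0.321, 0.304 and 0.261 in rats 12, 24-4 and 33, a 1.23-fold range. Arntl to Nr1d1 was 0.279, 0.257 and 0.203, also in the order 12, 24-4, 33. In both pairs the 2 genes were low together in rat 33, so the ratio ranged less than Arntl itself, which spanned 1.62-fold. Arntl to Nr1d1 still spanned 1.37-fold, more than Nr1d1 itself at 1.23-fold. Arntl to Per3 did turn over, with 0.840, 1.301 and 0.556, because Per3 was low in rat 24-4. Clock to Per2 was 0.149, 0.213 and 0.377, lowest in rat 12 and highest in rat 33. Cry1 to Per1 stayed between 0.2496 and 0.309. With 3 animals, each sampled once and with no time of day, a phase was not estimated, and differences in phase and in amplitude cannot be told apart.

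**Figure D3:**
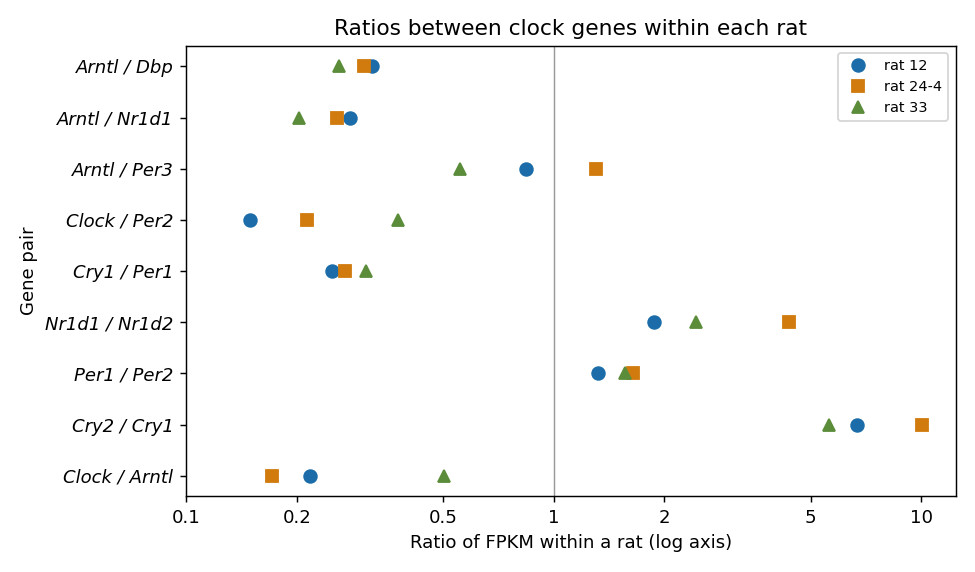
Ratio of FPKM of 9 pairs of clock genes within each rat, on a log axis, where 1 means equal levels. The Arntl to Dbp points lie close together (0.261 to 0.321), whereas Nr1d1 to Nr1d2 (1.87 to 4.36) and Clock to Arntl (0.171 to 0.503) are spread.

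The relatives of the positive limb showed Npas2 as the most abundant activator. Npas2, a partner of ARNTL that can stand in for CLOCK in the forebrain, had an FPKM of 22.6, 25.4 and 13.3 in rats 12, 24-4 and 33. It exceeded Clock by 7.99, 11.9 and 3.30 times in the same rats, and like Arntl it was lowest in rat 33. Npas2 to Arntl gave 1.74, 2.03 and 1.66. Arntl2, the paralogue of Arntl, was near the floor at 0.210 ± 0.0376. Of the ROR genes, whose proteins activate Arntl at the element that the REV-ERB proteins also bind, Rora had 1.97, 1.34 and 1.14. Rorb, which is also known as a marker of granular layer neurons, had 13.7, 2.42 and 3.63. Rat 12 stood 5.66-fold above rat 24-4, and the limma adjusted p was 0.569. Rat 12 was the highest for Rora and Rorb and rat 33 the lowest for Npas2 under all 3 scalings, while the highest rat for Npas2 was 24-4 as deposited and 12 with the mitochondrial genome left out.

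Other repressors and output factors had several patterns. Ciart, a repressor of the activator pair, had 6.66, 3.81 and 4.08 in rats 12, 24-4 and 33, near the pattern of Per1 and Per2, and like them it was lowest in rat 33 with scaling by median ratios. Bhlhe40 and Bhlhe41, which encode the E-box binding repressors DEC1 and DEC2, went opposite ways, with 57.2, 36.2 and 21.0 for Bhlhe40 and 14.9, 20.3 and 22.5 for Bhlhe41, under all 3 scalings. Timeless stayed at 0.932 ± 0.204. Of the D-box binding factors related to Dbp, Tef had 66.9, 75.7 and 41.6, lowest in rat 33 under all 3 scalings, as Dbp was. Hlf had 71.0, 35.9 and 12.1, a 5.86-fold range in the same order under all 3 scalings. Its SD was 1.24 on the log2 scale, the largest of these relatives, and its limma adjusted p was 0.416. Nfil3, which represses at D-boxes, had 4.72, 5.11 and 6.03. Hlf to Dbp therefore ran 1.75, 0.875 and 0.395, while Tef to Dbp stayed between 1.36 and 1.84.

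**Figure D4:**
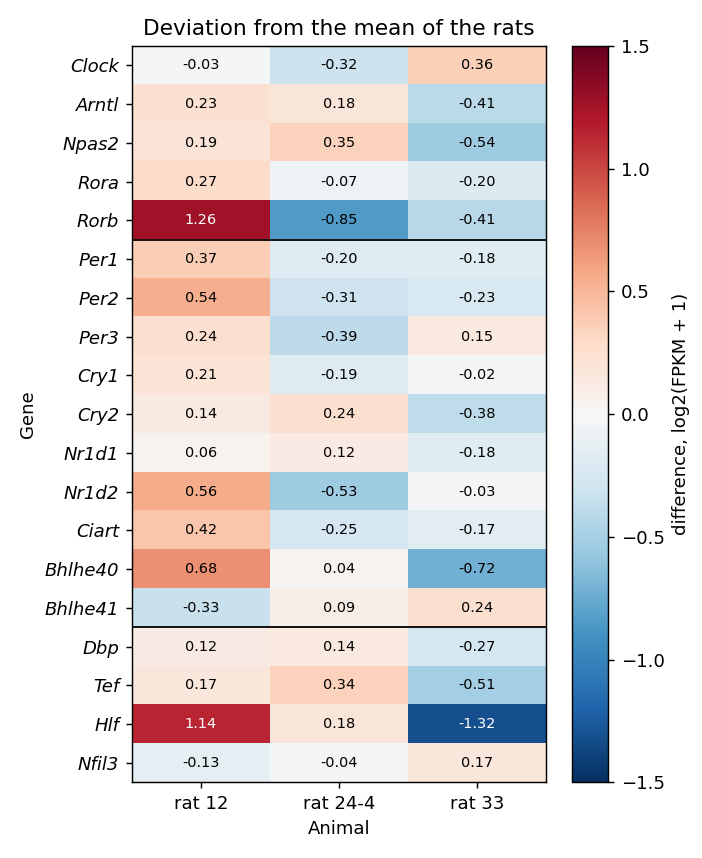
Difference of each clock or clock-related gene from its mean over the 3 rats, on the log2(FPKM + 1) scale, with red above and blue below the mean and lines between activators, repressors and output factors. Hlf runs from 1.14 in rat 12 to -1.32 in rat 33 and Rorb reaches 1.26 in rat 12, while the 10 core genes stay between -0.53 and 0.56.

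No gene that modifies clock proteins passed the limma test, as 0.102% of all tested genes did. With so small a share, a count of 0 in a short list says nothing particular about its genes. Of 11 kinases and phosphatases, such as the casein kinases that mark PER proteins, 0 passed the limma test at either threshold, and their median deviations were 0.10, 0.00 and -0.09 in rats 12, 24-4 and 33. Ppp2ca, a phosphatase catalytic subunit, was the most abundant of them at 149 ± 13.3, and Prkaa1, a subunit of the energy sensor AMPK, had the largest ratio of highest to lowest FPKM, though close to that of others, with 7.496, 5.96 and 10.3. Prkaa2, another AMPK subunit, was the lowest at 8.00, 4.63 and 6.80. Of 8 measured genes of ubiquitin turnover 0 passed, with Usp7 at 43.8 ± 11.2, Siah2 at 5.80 ± 0.735 and Ube3a at 7.94, 4.21 and 7.34. Of 15 cofactors 0 passed, with Nono at 51.7 ± 7.25, Kdm5a at 2.36 ± 0.650 and the deacetylase gene Sirt1 at 4.601, 3.15 and 6.20. Of 23 measured genes often called clock-controlled 21 were tested, with 0 passing. In that list 1 gene had an unadjusted limma p under 0.05, against 5.96% of all tested genes. It was Hspb1, a small heat shock protein gene, at 4.30, 12.7 and 28.7. Snf8 was the most abundant gene of the list at 68.6 ± 13.2, and Hspa1b the lowest above 0, at 0.325 ± 0.292.

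Most genes of neuronal activity were, like Per1 and Per2, highest in rat 12. Per1 and Per2 can be induced through CREB, the factor that also drives immediate early genes. Of 13 tested genes of that list 9 were highest in rat 12, as were 23.8% of all tested genes. With the mitochondrial genome left out these became 10 of 13 and 35.5%. The median deviations of the list were 0.42, -0.12 and -0.12 in rats 12, 24-4 and 33. Egr1 had 81.8, 34.2 and 18.2, and Npas4 had 1.93, 0.801 and 0.156. None of the 13 passed over all genes in limma, and 4 had an unadjusted p under 0.05, against 5.96% of all tested genes. The list of glucocorticoid response genes, a further input to Per1, had median deviations of -0.02, -0.10 and 0.00. It had 5 of 11 tested genes highest in rat 12 and 4 in rat 33, against 23.8% and 42.0% of all tested genes. Its most abundant and most variable gene, the metallothionein gene Mt2A, had 46.5, 114 and 302, and Hif3a was lowest at 0.522 ± 0.125. The part of either input in the Per values was not tested.

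Levels of cell type markers differed between the same rats. As deposited, rat 33 was the lowest for Arntl, Cry2, Nr1d1, Dbp, Npas2, Rora, Bhlhe40, Tef, Hlf and Arntl2, the last near the floor. It was the highest for Clock, Bhlhe41, Timeless and Nfil3. The other named clock genes and relatives, Per1, Per2, Per3, Cry1, Nr1d2, Rorb and Ciart, had their middle value in rat 33. There 7 of 8 glutamatergic and 7 of 8 GABAergic neuron markers were lowest, as were 28.9% of all tested genes. With scaling by median ratios all 8 of the latter were lowest there, against 38.4%. Summed FPKM was 2064, 2163 and 1032 for the former and 481, 529.9 and 272 for the latter in rats 12, 24-4 and 33. All 8 oligodendrocyte and all 8 microglial markers were highest in rat 33 under all 3 scalings, with sums of 5611, 7246 and 12552 and of 165, 263 and 436. Of all tested genes 42.0% were highest in rat 33 as deposited. The share was 32.1% with scaling by median ratios and 41.3% with the mitochondrial genome left out. Astrocyte markers summed to 1384, 2391 and 3180, of which Gfap alone gave 271, 937 and 1585. As deposited 5 of the 8 were highest in rat 33 (4 with scaling by median ratios), and 1 was lowest there. The 7 endothelial and mural markers summed to 109, 116 and 155, the 6 of oligodendrocyte precursors to 112, 188 and 186, and the 5 red blood cell genes to 559, 84.4 and 391. Choroid plexus markers summed to 3324, 129 and 13115, and 4 of 6 passed the limma test, as 0.102% of all tested genes did, the only genes of any list here. Under 5 of 9 alternatives, those with 0 calls over all genes, 0 of the 6 passed, the one without rat 24-4 included, and under the other 4 all 6 passed. Of 9 tested reference genes 0 passed and 1 had an unadjusted limma p under 0.05, against 5.96% of all tested genes. The part of these in the clock gene values was not tested. In bulk tissue, fewer cells of a type and less RNA per cell cannot be told apart.

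**Figure D5:**
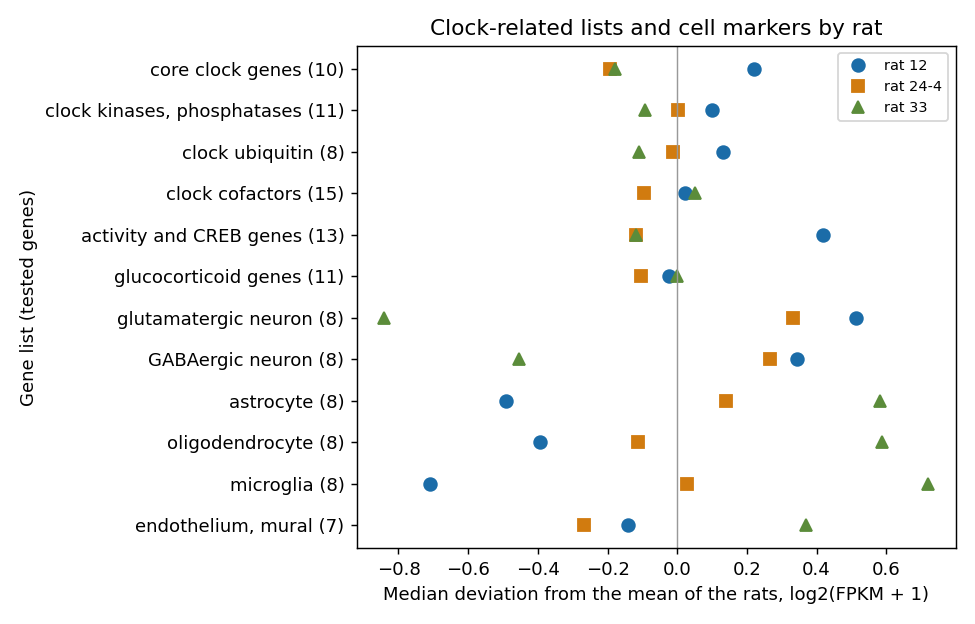
Median deviation from the mean of the rats, on the log2(FPKM + 1) scale, for the core clock genes, clock-related lists and cell markers, with 1 point for each rat and the number of tested genes in parentheses. Rat 33 lies left for neuron markers (-0.84 and -0.46) and right for oligodendrocyte (0.59) and microglial markers (0.72), whereas the core clock genes lie at 0.22 in rat 12 and at -0.19 and -0.18 in rats 24-4 and 33.

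Markers of cortical neurons were abundant, and those of the suprachiasmatic nucleus, the master clock of the hypothalamus, were mixed. Slc17a7, the vesicular glutamate transporter of cortical neurons, had 421, 709 and 367 in rats 12, 24-4 and 33. Of 10 measured genes on the list for that nucleus 6 had a mean FPKM of 1 or more, namely Vip, Rgs16 (8.13 ± 0.738), Grp (7.30 ± 3.85), Gpr176 (4.27 ± 1.62), Prokr2 (1.88 ± 0.766) and Vipr2 (1.46 ± 0.248). The other 4 were lower, with Avp at 0.317 ± 0.336, Prok2 at 0.337, 0.299 and 0, Lhx1 at 0.068, 0 and 0.121, and Six6 listed at 0 in all rats. A listed 0 can be a failed estimate, as the housekeeping gene Hprt1 was also listed at 0 in all rats. Vip, which cortical interneurons also make, was the most abundant gene of the list with 21.6, 14.2 and 5.38. Of the 6 tested genes 0 passed in limma and 2, Vip and Grp, had an unadjusted p under 0.05, against 5.96% of all tested genes.

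Many genes shared the patterns of single clock genes, as 3 animals allow few patterns. Likeness was measured as the Euclidean distance between deviations of log2(FPKM + 1) over the 3 rats. Nearest to Arntl were Dennd6b (0.0106), Cacna2d2 (0.0138) and Dlx1 (0.0157), with 419 of 11590 compared genes within 0.2. Nearest to Dbp were Irs2 (0.00197), Zbtb9 (0.00380) and Mast3 (0.00776), with 857 genes of 11589 within that distance. Nearest to Per1 were Spire1 (0.00433), Smarca2 (0.0141) and Mib1 (0.0156), with 378 of 11589.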

How the data were processed

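RNA of motor cortex was sequenced in 3 rats of 1 group. The deposited values are FPKM, which the authors obtained from normalized fragment counts with a Perl script, per the labels and design text. The submitters' processing notes name HISAT2 (2.0.4) and StringTie (1.3.0), without their roles, and the build Rnor_6.0. Animals are separate, with 1 library each, so p-values measure spread between animals and libraries together. No 2 files shared a value above 0.

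Loci no longer than 400 bp take values in steps of 1 fragment, and those steps gave the depth: 15340000, 17250000 and 13010000 fragments in rats 12, 24-4 and 33, with 91.3%, 91.1% and 92.6% of values whole within 0.02. For 1 kb, FPKM 1 equals 15.3, 17.2 and 13.01 fragments (95% Poisson intervals 8.65 to 25.2, 10.1 to 27.5 and 6.93 to 22.2), and 3 fragments would give an FPKM of 0.196, 0.174 and 0.231. These cover counting error only. FPKM sums were 476169, 464587 and 489810.

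Genes whose mean FPKM reached 1 were fitted as log2(FPKM + 1) with limma (3.58.1, R 4.3.3), an intercept and a trended, robust prior. The pseudocount of 1 understates differences of low genes. Residual over prior variance was set against F, one-sided, with Benjamini-Hochberg over all genes and a threshold of 0.05. The script was tested on simulated data of 13754 genes, 50 of them seeded at each fold. Python 3.11.15, numpy 2.4.6, pandas 2.3.3, scipy 1.17.1 and matplotlib 3.10.9 did the rest. The clock genes, pairs and lists were chosen with earlier results of these data known. Named are all clock genes and their relatives (1 relative is not reported here), the highest, lowest and most variable gene of each other list (for cell markers and reference genes, which the rule also covers, only sums or counts are printed), and the 3 genes nearest to Arntl, Dbp and Per1. Slc17a7, Gfap, Hprt1, Thra and all genes of the suprachiasmatic list but Vip and Lhx1 were named after their values were seen. Alternatives were another pseudocount, filter, prior and scaling, and leaving out each rat.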

Additional observations from a re-analysis of the deposited data

How the results depend on the processing

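With 9 alternatives, 0 clock genes passed the limma test in each, and the lowest adjusted p of any was 0.911. Nr1d2 without rat 33 was the 1 case with an unadjusted p under 0.05. The count over all genes, 14, became 23 with a pseudocount of 0.1 and 35 with scaling by median ratios. It became 0 with a mean FPKM of at least 0.1, with no filter, with a prior that is not robust and with the mitochondrial genome left out. It ran from 0 (without rat 24-4) to 104 (without rat 12) with a rat left out, and was 64 without rat 33. In the order of those settings 820, 932, 903, 864, 733, 624, 655, 869 and 656 genes had an unadjusted p under 0.05. The cause was not tested.

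Positive minus negative limb kept its sign and moved by less than 1 SD, from -1.59 without rat 24-4 to -1.13 without rat 12. Adding Npas2 and Rora gave -1.36 by construction, since they lie above and below both genes. Npas2 in place of Clock was not among the alternatives. Of 54 alternatives for 9 pairs, 53 also kept the sign and moved by less than 1 SD. Leaving out 1 of 3 rats cannot move a mean by 1 SD, for the limbs as for the pairs. Scaling largely cancels in a difference within a rat. Apart from the pseudocount, the pair alternatives could thus fail only by a change of sign, and their count is little evidence of stability. Arntl minus Per3, -0.22 with all rats, was 0.056 without rat 33 and -0.50 without rat 24-4. No paired analysis was possible because there is 1 group. Leaving out the mitochondrial genome raised the median of all genes by 0.41, 0.20 and 0.31 (log2) in rats 12, 24-4 and 33, and median ratios moved it by 0.06, 0.01 and -0.10. Depth limits Clock and Cry1 most, and values under an FPKM of about 0.2 lie near 3 fragments for 1 kb.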
